A study of Danio rerio with 8 samples.

Results

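The long arm of zebrafish chromosome 4 was examined through the peaks called there for the segmentation-clock proteins Her7 and Her1. Its members were all peaks on chromosome 4 whose deposited start was 27000000 or more. This rule selected 346 of 7652 peaks, 298 of 5591 in the Her7 list and 48 of 2061 in the Her1 list. The rule is positional and used no measured value. The series profiled whole, untreated zebrafish embryos at the bud stage by CUT&Tag, in which an antibody directs a transposase to the chromatin around a protein and the released fragments are sequenced. The Her7 list was deposited with the first anti-GFP replicate of the line Tg(her1:nls-mkate2,her7:her7-YFP). This line carries Her7 fused to YFP and, in addition, a nuclear red reporter under her1 control. The Her1 list came from the anti-GFPpoly sample of Tg(her1:her1-YFP), which carries Her1 fused to YFP and no red reporter. Each replicate pooled 120 embryos of all cell types. By the genotype names, each tagged protein came from a transgene under the control of its own gene's regulatory sequence. No separate list was analysed for the other 6 of the 8 samples. These were a second Her7 anti-GFP replicate, a Her1 anti-Venus sample, and an anti-H2AZ and a negative-control sample of each line. The Her7 line was sequenced on a MiSeq and the Her1 line on a NextSeq, so line and sequencer cannot be told apart. There was 1 list per protein, hence no replicate error and no test between conditions. Intervals are at 95% and cover counting error only, and neighbouring peaks are not independent.

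Her7 and Her1 are basic helix-loop-helix repressors of the Hairy and Enhancer-of-split family. They bind DNA as dimers and switch off their own genes, which drives the oscillator that times somite formation in the presomitic mesoderm. The long arm of chromosome 4 is known in zebrafish as a largely heterochromatic, late-replicating arm that is rich in repeats. It holds multicopy families such as NLR immune receptor and zinc finger genes, and it carries a region tied to sex determination in wild strains. Neither repeat content nor replication time was measured by the files, so the label was taken by position alone.

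By peak density the arm ranked highest in the Her7 list and near the bottom in the Her1 list. Her7 peaks were denser on the long arm than on any of the 24 other numbered chromosomes or the short arm. Her1 peaks were sparser there than on all but 2 of those 25 regions. Measured from the boundary to the outermost peak called, the arm spanned 51.0 Mb. The Her7 list had 5.84 peaks per Mb on the long arm (exact Poisson interval 5.20 to 6.55), 3.85 on the short arm and between 2.26 (chromosome 1) and 4.72 (chromosome 25) on the other chromosomes, whose median was 3.44. The Her1 list had 0.941 peaks per Mb on the long arm (0.694 to 1.25), 2.11 on the short arm and between 0.830 (chromosome 6) and 1.76 (chromosome 21) on the other chromosomes, whose median was 1.25. The long-arm density was thus 1.70 times the median of the other chromosomes in the Her7 list and 0.752 times that median in the Her1 list. The Her1 interval on the long arm ended just below that median, whereas the Her7 interval lay above the density of every other chromosome. It overlapped the interval of chromosome 25 (4.05 to 5.47). Without the dense stretch described below the Her7 interval was 4.57 to 5.84, which included the density of chromosome 25. With a −log10 q-value of at least 5 it was 4.13 to 5.34, against a highest other density of 4.16. In both settings the Her7 density itself stayed above all 24.

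**Figure D1:**
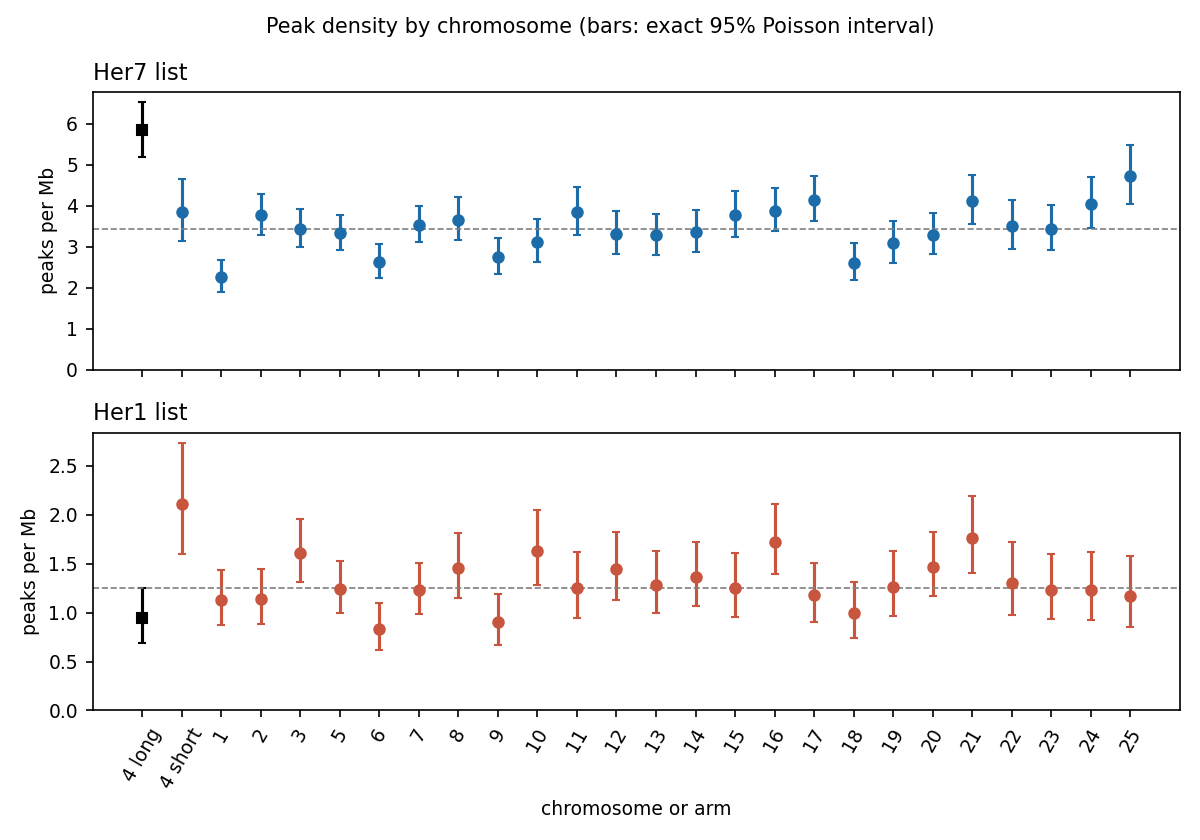
Peaks per Mb (vertical axis) on the long arm of chromosome 4 (black square), its short arm and the other 24 numbered chromosomes, for the Her7 list (top) and the Her1 list (bottom). Bars are exact 95% Poisson intervals and the dashed line is the median of the 24 other chromosomes. The long arm is highest in the Her7 list at 5.84 and lower than all but 2 other chromosomes in the Her1 list at 0.941.

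The number of Her7 peaks for each Her1 peak was 6.21 on the long arm. It was 1.82 on the short arm of the same chromosome, the lowest of the 26 regions, and ranged from 1.92 (chromosome 10) to 4.02 (chromosome 25) on the others, with a median of 2.64. The long arm held 5.33% of the whole Her7 list (exact binomial interval 4.76 to 5.95) and 2.33% of the whole Her1 list (1.72 to 3.08). Peaks covered 145 kb of the arm in the Her7 list and 18.7 kb in the Her1 list.

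The surplus of Her7 peaks on the arm lay mostly among weak peaks. The number of fragments stacked at a summit (the pileup) and the local background behind it were recovered from the deposited fold enrichment and p-value, as fragments per position. The division at 20 fragments was chosen after the values had been seen. Her7 peaks with a pileup of at most 20 fragments had a density of 2.94 per Mb on the long arm (2.49 to 3.45). The short arm had 0.667 per Mb and the other chromosomes 0.686 to 2.24, with a median of 1.014. The long arm was therefore at 2.90 times that median and above all 24. Chromosome 25, the highest of these at 2.24, was like the arm in other Her7 measures too. Its median pileup was 24, its neighbouring summits were a median of 21.2 kb apart, and 3.95% of its peaks overlapped a Her1 peak. Its median fold enrichment was 10.3, against 7.27 on the long arm. For Her7 peaks with a pileup above 20 the density was 2.90 per Mb on the long arm (2.45 to 3.41), against 3.19 on the short arm and 1.57 to 3.12 on the others. That is 1.196 times their median, and 4 of the 24 were higher. The Her1 list showed no such surplus at the same division, which cuts the 2 lists unequally. A pileup of at most 20 was held by 29.3% of Her7 and 72.5% of Her1 peaks on the other chromosomes. A surplus at like relative strength was not assessed for Her1. The Her1 peaks with a pileup of at most 20 had 0.745 per Mb on the long arm (0.527 to 1.02), against a median of 0.945 on the others. Those above 20 had 0.196 (0.0940 to 0.361), against 0.328.

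**Figure D2:**
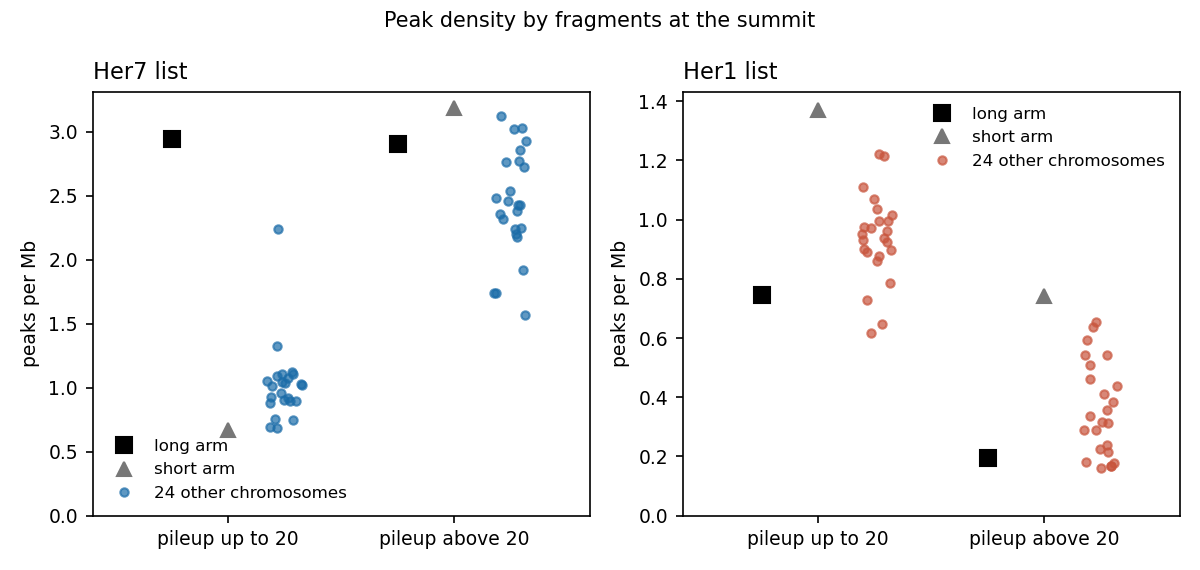
Peaks per Mb (vertical axis) with at most 20 or above 20 fragments at the summit, for the long arm of chromosome 4 (square), its short arm (triangle) and each of the 24 other numbered chromosomes (dots), in the Her7 list (left) and the Her1 list (right). In the Her7 list the long arm, at 2.94, lies above every other chromosome among the weak peaks only.

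Median fold enrichment on the arm was low in both lists, and median pileup was low in the Her7 list only. In the Her7 list the median pileup was 20 fragments on the long arm (interval of the median 17 to 23), 59 on the short arm (45 to 76) and 44 over the other numbered chromosomes (41 to 46). The median fold enrichment, a ratio that is the authors' own, was 7.27 on the long arm (6.51 to 8.27), 15.1 on the short arm (12.9 to 21.3) and 11.4 on the other chromosomes (10.96 to 11.98). Both Her7 medians were the lowest of the 26 regions. In the Her1 list the median pileup was 11 fragments on the long arm (7 to 15), 12 on the short arm and 11 on the other chromosomes. The median fold enrichment of the Her1 peaks was 6.79 on the long arm (6.14 to 7.74), 9.14 on the short arm and 8.71 on the others (8.36 to 8.81), and again no region was lower than the long arm. The highest fold enrichment of any long-arm peak was 94.8 in the Her7 list and 40.7 in the Her1 list, against 6484 and 1081 in the lists as a whole. A pileup above 100 was seen in 35 Her7 peaks of the arm (11.7%, 8.32 to 16.0), against 21.2% (20.0 to 22.4) on the other chromosomes. None of the 48 Her1 peaks reached it, which allows a share of up to 7.40% (exact upper bound), against 3.18% (2.39 to 4.15) on the other chromosomes.

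Widths were close to those elsewhere. The median width was 399.5 bp for Her7 peaks of the long arm (368 to 426), 386.5 bp on the short arm and 401 bp on the other chromosomes (395 to 407). Her1 peaks had medians of 370.5 bp (337 to 410), 406 bp and 391.5 bp (384 to 401) in the same order. The Her7 widths of the arm ran from 233 to 2359 bp and the Her1 widths from 263 to 654 bp. Wide peaks above 1000 bp made up 19 of the 298 Her7 members (6.38%, 3.88 to 9.78), against 7.04% on the other chromosomes. No Her1 member was that wide (up to 7.40%), against 6.79% on the other chromosomes.

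Beside the 27000000 boundary, the last Her7 peak below it was chr4:26957597-26958094 (fold enrichment 42.8, pileup 49) and the first above it chr4:27099279-27099564 (fold enrichment 47.9, pileup 55). Both had a background at the floor, the lowest background of the list. The Her1 list had its last peak below the boundary at chr4:26847893-26848615 (fold enrichment 8.71, pileup 8) and its first above it at chr4:28467800-28468142 (fold enrichment 11.3, pileup 17). Moving the boundary to 25 Mb gave 314 Her7 and 50 Her1 peaks.

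Along the arm most windows of 1 Mb held a Her7 peak, and fewer held a peak of the Her1 list, which had fewer peaks there. Of the 51 windows of 1 Mb that make up the arm, 2 lacked a Her7 peak (3.92%, 0.478 to 13.5), against 10.6% (8.997 to 12.5) on the other chromosomes. A Her1 peak was lacking in 27 of the 51 (52.9%, 38.5 to 67.1), against 41.3% (38.6 to 44.0) on the others. In both lists the long-arm interval included the share on the other chromosomes. The median window held 4 Her7 peaks on the long arm and 2 on the short arm and on the other chromosomes. Divided into 3 parts of equal length, the arm had 116, 102 and 80 Her7 peaks from the boundary outwards, and 22, 13 and 13 Her1 peaks. The first part includes the dense stretch described below, which alone held 34 of the Her7 and 14 of the Her1 peaks. These counts can therefore not be read as a decline along the arm. Neighbouring Her7 summits were a median of 59.5 kb apart on the long arm (39.2 to 84.0), 60.2 kb on the short arm (30.5 to 132) and 124 kb on the other chromosomes (114 to 135). Neighbouring Her1 summits were 328 kb apart on the long arm (156 to 958), 133 kb on the short arm (47.9 to 240) and 329 kb on the others (280 to 405). Without the dense stretch described next, the Her1 distance on the long arm was 864 kb (328 to 1703). The longest gap between Her1 summits on the arm was 8687 kb, and that between Her7 summits was 1358 kb.

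**Figure D3:**
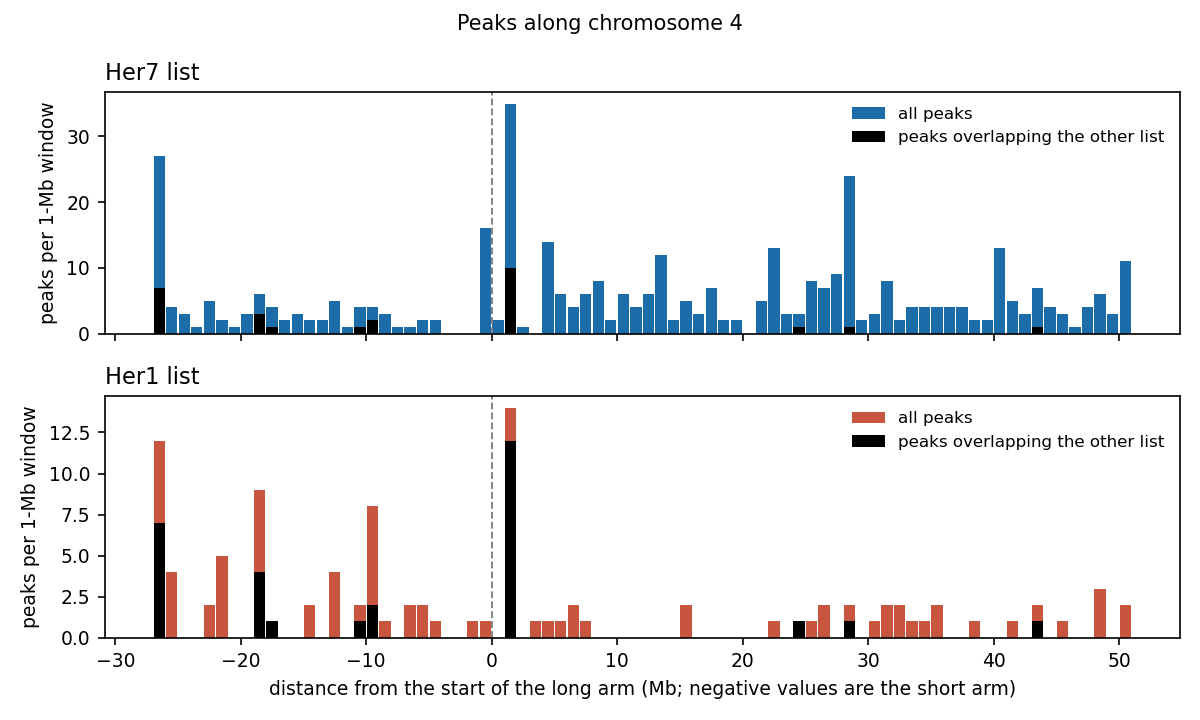
Number of peaks per 1-Mb window (vertical axis) along chromosome 4, by distance in Mb from the start of the long arm (dashed line), for the Her7 list (top) and the Her1 list (bottom), with peaks that overlap the other list in black. The same window, just inside the long arm, holds the most peaks of the arm in both lists, 35 and 14.

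Of the peaks in that fullest window, 34 of the 35 Her7 peaks and all 14 Her1 peaks lay between 28467800, where the first Her1 peak started, and 28924755, where the last Her7 peak ended. This dense stretch was singled out after the values had been seen. It held 34 of the 298 Her7 members and 14 of the 48 Her1 members. Neighbouring summits within it were a median of 2.02 kb apart in the Her7 list and 3.42 kb in the Her1 list. Its peaks had high backgrounds. For Her7 its median background was 205 times the floor (49.4 to 408), against 5.82 times (4.65 to 6.55) on the rest of the arm and 5.83 times on the other chromosomes. For Her1 it was 113 times the floor (6.16 to 393), against 3.85 times (1.54 to 8.63) on the rest of the arm and 4.62 times on the other chromosomes. The median fold enrichment of the stretch was 4.25 in the Her7 list (3.86 to 5.61), although the median pileup was 147.5 fragments (50 to 276).

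Of the 298 Her7 members, 84 lay in 16 clusters of at least 3 peaks with neighbouring summits at most 10 kb apart, 28.2% (23.2 to 33.7) against 21.96% (20.7 to 23.2) on the other chromosomes. Of the 48 Her1 members, 10 lay in 3 such clusters (20.8%, 10.5 to 35.0), against 15.0% (13.3 to 16.8). All 3 Her1 clusters were in the dense stretch, so none was left without it, and the Her7 share was then 20.8% (16.1 to 26.2). The fullest Her7 cluster was chr4:28555524-28604980, where 19 peaks with pileups of 89 to 1342 fragments stood on backgrounds of 131 to 1946 times the floor. Clusters of that size were not limited to the arm, since 8 Her7 clusters on the numbered chromosomes, this one included, had at least 19 peaks, and one on chromosome 24 had 57. The second, chr4:28695382-28709260, held 10 Her7 peaks with backgrounds of 24.9 to 149 times the floor. The Her1 clusters overlapped the same intervals. They were chr4:28585284-28589898 with 4 peaks, chr4:28565882-28572411 with 3 and chr4:28694309-28706233 with 3.

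The next 5 Her7 clusters held 5 peaks each and no Her1 overlap. In chr4:31201203-31218289 the pileups were 10 to 22 fragments. In chr4:40247982-40252164 they were 11 to 19, and in chr4:49363377-49383078 they were 11 to 16. In chr4:55126482-55145772 they were 17 to 74. The fifth, chr4:77552751-77566869 near the end of the arm, had pileups of 46 to 683 and backgrounds up to 992 times the floor.

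Several clusters contained peaks of exactly equal width. This measure was chosen after the peaks had been seen. Among pairs of Her7 peaks with summits at most 10 kb apart, 22 of 191 on the long arm had exactly the same width (11.5%, 7.36 to 16.9), against 1 of 44 on the short arm (2.27%, 0.0575 to 12.02) and 41 of 2444 on the other chromosomes (1.68%, 1.21 to 2.27). The 18 other chromosomes with at least 50 such pairs ranged from 0 to 10.0% (chromosome 20), with a median of 1.014%. Among the 6 chromosomes with fewer pairs, chromosome 9 had 16.7% (4 of 24) and chromosome 19 had 13.6% (3 of 22), both above the long arm. When only peaks with a pileup of at most 20 were paired, the shares were 16 of 48 on the long arm (33.3%, 20.4 to 48.4) and 15 of 344 on the other chromosomes (4.36%, 2.46 to 7.09). When only peaks wider than 300 bp were paired, they were 9.79% (5.46 to 15.9) and 1.39% (0.925 to 2.00). The Her1 list had 0 of 14 pairs on the long arm, which allows up to 23.2%, against 6 of 484 on the other chromosomes (1.24%). The pairs share peaks, so the 191 are not independent: 34 different Her7 peaks made up the 22 pairs.

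Examples were spread along the arm. At chr4:67069568-67083177 all 4 Her7 peaks of the cluster were 327 bp wide, with pileups of 18, 9, 16 and 6. At chr4:54724676-54728675 all 3 were 400 bp wide, with starts 2400 and 1200 bp apart. At another place on the arm the starts of a pair of 400-bp peaks, at 61065864 and 61067065, were 1201 bp apart. A distance of 4230 bp between starts occurred at 31201203 and 31205433, between peaks 294 bp wide. It occurred again at 50104966 and 50109196, between peaks 436 bp wide. Near the end of the arm 2 peaks were each followed by a peak of like width and pileup, 11551 and 11552 bp further on. The first 2, at 77552751 and 77564302, were 1201 and 1204 bp wide with pileups of 96 and 98. The other 2, at 77554452 and 77566004, were 859 and 866 bp wide with pileups of 683 and 628.

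Over peaks of all pileups together, raised background was not clearly more common on the arm than elsewhere. A background above 10 times the floor was found for 103 Her7 members (34.6%, 29.2 to 40.3), against 42.3% (32.7 to 52.4) on the short arm and 40.6% (39.1 to 42.1) on the other chromosomes. For Her1 it was 21 members (43.8%, 29.5 to 58.8), against 40.4% (27.6 to 54.2) and 35.6% (33.3 to 38.0). Without the dense stretch the shares were 27.3% (21.99 to 33.1) for Her7 and 29.4% (15.1 to 47.5) for Her1. At like pileup the median Her7 background was higher on the long arm than on the other chromosomes. It was 2.72 against 1.56 times the floor at pileups up to 10 and 6.04 against 3.45 at 11 to 20. At 21 to 100 it was 8.68 against 7.71, and above 100 it was 273 against 61.1. Without the dense stretch these long-arm medians were 2.72, 6.08, 7.39 and 189, so that at 21 to 100 was then the lower. For Her1 peaks the medians were 2.46 against 1.85 up to 10, 17.9 against 7.70 at 11 to 20 and 178 against 23.8 at 21 to 100. Without the dense stretch the Her1 medians on the arm were 2.46, 14.9 and, for 1 peak, 53.6. No interval was computed for these medians by class. Peaks with a background within 1% of the floor made up a small share of the Her7 members, 24 of 298 (8.05%, 5.23 to 11.7) against 8.65% (4.03 to 15.8) on the short arm and 15.9% (14.8 to 17.0) on the other chromosomes. The Her7 members had intermediate backgrounds, with an interquartile range of 2.72 to 16.3 times the floor, against 1.82 to 27.6 times on the other chromosomes.

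**Figure D4:**
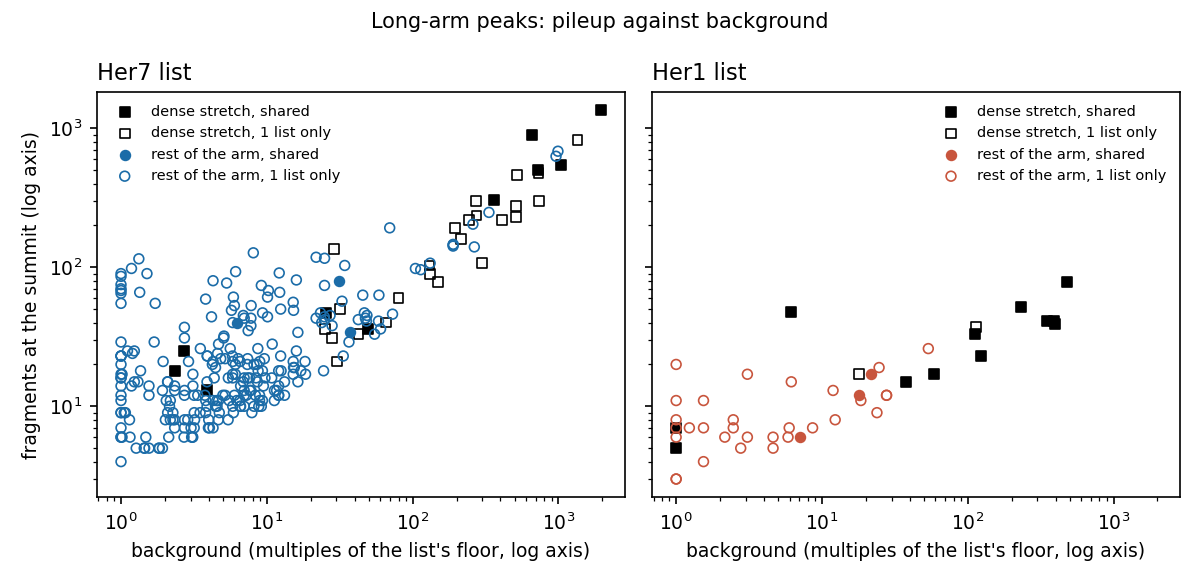
Fragments at the summit (vertical, log axis) against background in multiples of the list's floor (horizontal, log axis) for every long-arm peak of the Her7 list (left) and the Her1 list (right). Squares are peaks of the dense stretch, circles the rest of the arm, and filled symbols peaks that overlap the other list. Most filled symbols are squares, and the Her7 peaks of the dense stretch reach 1946 times the floor.

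Whether Her7 and Her1 occupied the same places on the arm was addressed by overlap of at least 1 bp. Of the 298 Her7 members, 13 overlapped a Her1 peak (4.36%, 2.34 to 7.34), against 10.2% of the whole Her7 list, 13.5% (7.56 to 21.6) on the short arm and 10.3% (9.36 to 11.2) on the other chromosomes. Of the 48 Her1 members, 15 overlapped a Her7 peak (31.2%, 18.7 to 46.3), against 29.3% of the whole Her1 list, 26.3% (15.5 to 39.7) on the short arm and 28.3% (26.2 to 30.6) on the other chromosomes. The Her7 share was below that of 22 of the 24 other chromosomes, and the Her1 share was above that of 16. Both shares count the same overlaps, so they are not independent of the numbers of peaks. The arm held 6.21 Her7 peaks for each Her1 peak, against a median of 2.64 on the other chromosomes. With a reciprocal overlap of 50% the shares were 2.01% for Her7 on the long arm against 5.96% on the other chromosomes, and 12.5% for Her1 (4.73 to 25.2) against 15.8% (14.1 to 17.6). Summits of the 13 pairs were a median of 65 bp apart (37 to 147), against 152.5 bp on the short arm and 108.5 bp (92 to 124) on the other chromosomes.

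Shared peaks were gathered in the dense stretch. It held 10 of the 13 shared Her7 members and 12 of the 15 shared Her1 members. Of its 14 Her1 peaks, 12 overlapped a Her7 peak (85.7%, 57.2 to 98.2). Such overlap was not limited to the stretch. The fullest 1-Mb window of Her1 peaks on the other chromosomes, on chromosome 12, held 26 peaks, and all 26 overlapped a Her7 peak. On the rest of the arm 3 of 264 Her7 peaks overlapped (1.14%, 0.235 to 3.28) and 3 of 34 Her1 peaks (8.82%, 1.86 to 23.7). Both intervals lay below the shares pooled over the other chromosomes, which kept their own fullest windows. Other chromosomes also have such windows, so the fullest window of shared peaks was left out of each region in turn. The shares then became 1.14% for Her7 and 8.82% for Her1 on the long arm. On the other chromosomes they ranged from 1.67 to 13.3% (median 7.35%) for Her7 and from 5.88 to 37.0% (median 19.6%) for Her1. The Her7 interval on the long arm (0.236 to 3.30) lay below the Her7 median. The Her1 interval (1.86 to 23.7) included the Her1 median, and chromosomes 6 (8.51%) and 25 (5.88%) were lower than the arm.

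**Figure D5:**
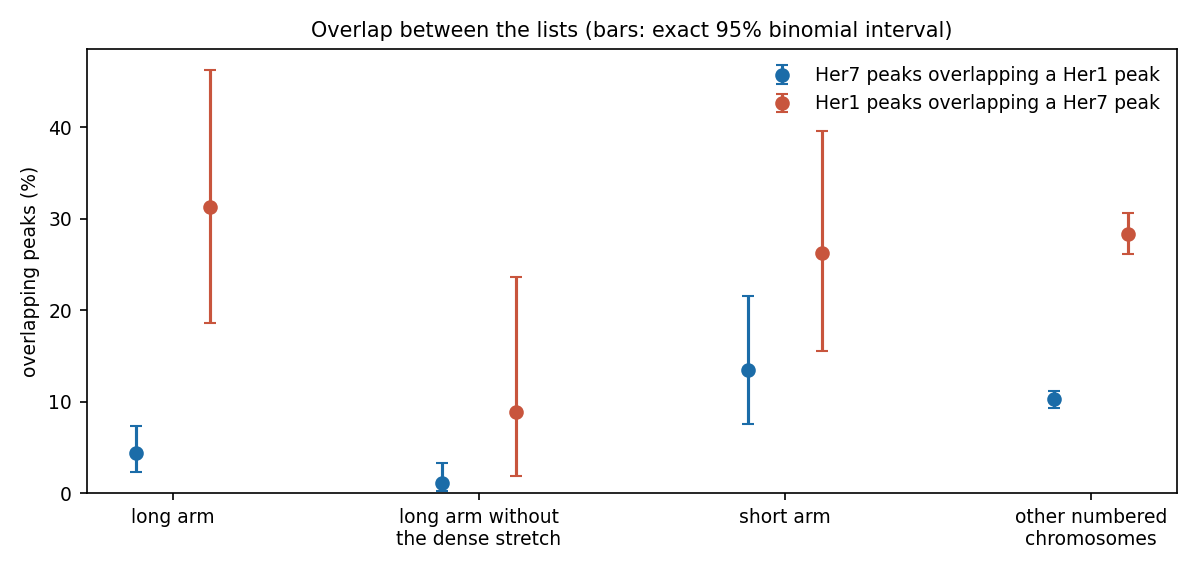
Share of peaks that overlap a peak of the other list (vertical axis, percent) on the long arm, on the long arm without the dense stretch, on the short arm and on the other numbered chromosomes, for Her7 and Her1 peaks. Bars are exact 95% binomial intervals. Without the dense stretch the long-arm shares are 1.14% for Her7 and 8.82% for Her1.

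Overlap on the arm was also compared at like strength, because weak peaks of both lists had lower shares on the other chromosomes. Among Her7 peaks with a pileup above 100, 5 of 35 on the long arm overlapped a Her1 peak (14.3%, 4.81 to 30.3), against 261 of 918 on the other chromosomes (28.43%, 25.5 to 31.5). All 5 were in the dense stretch, and outside it 0 of 15 overlapped, which allows up to 21.8%. At pileups of 21 to 100 the shares were 6 of 113 (5.31%, 1.97 to 11.2) and 7.19% (6.13 to 8.37). At pileups of 11 to 20 they were 2 of 90 (2.22%, 0.270 to 7.80) and 3.53% (2.25 to 5.25). At pileups up to 10 they were 0 of 60 (up to 5.96%) and 0.968% (0.356 to 2.09). Within each class the long-arm share was the lower one, and the intervals of the 2 shares overlapped in each. They narrowly did not overlap for Her7 peaks whose background did not exceed 10 times the floor. Of these, 4 of 195 on the long arm were shared (2.05%, 0.562 to 5.17), against 6.10% (5.21 to 7.10) on the other chromosomes. This class was matched on background, not on pileup. With both lists held to that limit the intervals overlapped (1.54%, 0.318 to 4.43, against 4.32%, 3.56 to 5.17). Above the limit they overlapped too (8.74%, 4.07 to 15.9, against 16.3%, 14.6 to 18.1). For Her1 peaks the order was the other way at each of the 3 pileup classes that the arm holds, and this rested on the dense stretch. The shares were 8 of 10 (80.0%, 44.4 to 97.5) on the long arm and 59.2% on the other chromosomes at pileups of 21 to 100, 4 of 15 (26.7%) and 24.3% at 11 to 20, and 3 of 23 (13.0%) and 10.1% up to 10. These Her1 intervals overlapped too. Without the dense stretch the Her1 shares on the long arm were 0 of 1, 2 of 12 (16.7%, 2.09 to 48.4) and 1 of 21 (4.76%, 0.120 to 23.8). Each was below that of the other chromosomes, but each interval included it. The stretch holds most of the shared Her1 members, so its removal alone lowers these shares. The other chromosomes kept their own shared windows. Of the 33 unshared Her1 members, 4 had a Her7 summit within 10 kb, and the median distance of the 33 to one was 55.4 kb. Neighbouring Her7 summits on the arm were a median of 59.5 kb apart, which is another measure and cannot be set against the 55.4 kb. The distance of unshared Her1 peaks to a Her7 summit was not measured on other chromosomes, so it cannot be called particular to these members.

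The strongest Her7 members, from the first to the fifth by q-value, fell into 2 kinds. The first 2 by q-value were wide and stood on high background. chr4:28571871-28573391 had a pileup of 889 fragments, a background of 654 times the floor and a fold enrichment of 7.99. chr4:28565800-28567965 had a pileup of 1342, a background of 1946 times the floor and a fold enrichment of 4.08. Both overlapped Her1 peaks. The third to the fifth were narrow, stood near the floor and had no Her1 peak. chr4:71527029-71527339 was 311 bp wide, with a pileup of 115, a background of 1.33 times the floor and a fold enrichment of 94.8. chr4:58261742-58262031 was 290 bp wide, with a pileup of 98, a background of 1.18 times the floor and a fold enrichment of 82.6. chr4:74381499-74381767 was 269 bp wide, with a pileup of 90, a background at the floor and a fold enrichment of 77.9. These were also the strongest Her7 members found in that list only. The division into 2 kinds did not hold for every member further down. The next by q-value, chr4:28569481-28570407, was 927 bp wide with a background of 1352 times the floor, but overlapped no Her1 peak. Of neither kind was chr4:28335358-28335843, which was 486 bp wide, with a background of 69.6 times the floor and a fold enrichment of 15.1. In the whole Her7 list of 5591 peaks the strongest long-arm peak ranked 134 by q-value.

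The strongest Her1 member, chr4:28470802-28471177, ranked 123 of 2061 in its list. It had a pileup of 48 fragments, a background of 6.16 times the floor and a fold enrichment of 40.7. The Her7 peak over it, chr4:28470906-28471145, was weak, with a pileup of 13 and a fold enrichment of 8.45. The next Her1 members were chr4:59196575-59197017 (pileup 20, fold enrichment 20.3) and chr4:57812527-57813180 (pileup 17, fold enrichment 16.3), neither of which overlapped a Her7 peak. The fourth, chr4:28565882-28566397 (pileup 78, background 483 times the floor, fold enrichment 4.67), was shared. The fifth, chr4:75347309-75347584 (pileup 11, fold enrichment 11.6), was not.

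The 5 shared places with the best combined ranks are given here, and 3 of them lay in the fullest Her7 cluster. At the first the Her7 summit was 28565937 (fold enrichment 4.08) and the Her1 summit 28566000 (fold enrichment 4.67). At the second they were 28572498 (7.99) and 28572254 (6.11), and at the third 28589308 (4.89) and 28589792 (7.22). The fourth lay far from the stretch, with summits at 70443588 in the Her7 list (fold enrichment 12.8, pileup 80) and 70443472 in the Her1 list (fold enrichment 10.5, pileup 17). The fifth was at low background in both lists. Its Her7 summit was 28921756 (fold enrichment 17.8, pileup 25, background 2.72 times the floor) and its Her1 summit 28921793 (fold enrichment 7.74, pileup 7, background at the floor), 37 bp apart. The other 2 shared places outside the dense stretch had Her7 summits at 51275923 (fold enrichment 20.0) and 55664702 (fold enrichment 4.797) and Her1 summits at 51275776 (fold enrichment 8.18) and 55664749 (fold enrichment 5.67).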

How the data were processed

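Peak lists of 2 of the 8 samples were used, grouped by the sample titles. Per the peak names in the files, the authors called peaks with MACS2 at a q threshold of 0.01. The submitters' processing notes name FastQC 0.11.9, Bowtie2 2.5.1, SAMtools 1.17, bedtools and MACS2 2.2.7. The genome build, read filters, treatment of duplicate and multiply mapping reads, control library, pooling and depth are not given in the sources used here. Coordinates are as deposited, counted from 1, and no gene or sequence was assigned. The deposited fold is a ratio at the summit over the local background, and the deposited −log10 p-value and −log10 q-value belong to the same summit. The deposited score restates the −log10 q-value and was not used.

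Pileup and background were solved from fold = (pileup + 1)/(background + 1) and p = the Poisson upper tail above the pileup. Whole-number pileups returned the deposited −log10 p-value, to a relative error under 3e-05, for 100% of the peaks in both lists. Pileups set between whole numbers returned it for 0.519% (Her7) and 0.257% (Her1) of the peaks with −log10 p under 100. All 1000 simulated peaks, made with the same formulas, were returned exactly. They reached a pileup of 1493 and a fold of 98.8, above the highest on the arm but short of the highest in the lists. Several pileups fitted within the same error for 33 Her7 and 23 Her1 peaks, none of them on the long arm. The floor was 0.169 fragments in the Her7 list and 0.0330 in the Her1 list. Shares carry exact binomial, densities exact Poisson and medians order-statistic intervals (SciPy 1.17.1). Densities of chromosomes used the span to the last peak. Named peaks were the 5 strongest by q in each list, the 5 shared peaks with the highest lower percentile rank, the 3 strongest in each list alone, those beside the boundary and the fullest clusters. The members and these rules were chosen with earlier results of these data known.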

Additional observations from a re-analysis of the deposited data

Results flagged for a closer look

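In 3 measures the long arm lay on one side of the other numbered chromosomes in the Her7 list and on the other side in the Her1 list. Each value here is the long arm divided by the median of the 24 other chromosomes. The difference between the lists was not tested, because each protein has 1 list. Peak density was 1.70 in the Her7 list and 0.752 in the Her1 list. The share of peaks whose background exceeded the floor 10 times was 0.857 in the Her7 list and 1.25 in the Her1 list. Without the dense stretch the Her1 share was 29.4% (15.1 to 47.5), below the 34.9% median of the other chromosomes. Both lists then lay on the same side, although the interval included that median. The stretch was chosen after the values had been seen, and the other chromosomes kept their own dense windows. The drop therefore follows in part from that choice. The share of peaks that overlapped the other list was 0.398 in the Her7 list and 1.18 in the Her1 list. Both shares count the same overlaps, over 298 Her7 and 48 Her1 members. They are therefore not independent of each other or of the densities of the 2 lists. Without the dense stretch both lists again lay on the same side. The Her1 share was then 8.82% (1.86 to 23.7), against a median of 26.5% on the other chromosomes. With each one's fullest shared window left out their median was 19.6%, which that interval included. The lists lay on the same side too at a reciprocal overlap of 50%, where the Her1 share was 12.5% against a pooled 15.8%. Summits at most 100 bp apart kept them on opposite sides, at 2.68% against a pooled 4.87% (Her7) and 16.7% against 12.9% (Her1). So did a −log10 q-value of at least 5, at 4.58% against 10.3% (Her7) and 35.1% against 30.1% (Her1).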

How the results depend on the processing

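The 16 long-arm values (8 per list) were recomputed under 78 alternatives, 24 of them chosen after seeing the data. In 43 the value stayed within its interval (or within 1.5 times a count), and in 35 it moved. The Her7 density stayed above and the Her1 density below the median of the other chromosomes in every alternative. No paired analysis was possible because only 1 list per protein was used. For the same reason no sample could be dropped in turn.

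With both lists limited to backgrounds of at most 10 times the floor, the arm held 195 Her7 and 27 Her1 peaks, the Her7 density ratio was 1.90, the distance between summits 134 kb (Her7) and 1262 kb (Her1), the Her7 width 347 bp, the Her7 fold 8.77, and the overlap 1.54% (Her7) and 11.1% (Her1), against 4.32 and 11.03% on the other chromosomes. Without the dense stretch, the density ratio was 1.51 (Her7) and 0.532 (Her1), the share in clusters 20.8% (Her7) and 0 (Her1), the share above 10 times the floor 27.3% (Her7) and 29.4% (Her1), and the overlap 1.14% (Her7) and 8.82% (Her1). The arm from 30 Mb gave an overlap of 1.15% (Her7) and 8.82% (Her1). Leaving out the window with the most shared peaks gave 1.14% and 8.82%. Overlap at a reciprocal 50% was 2.01% (Her7) and 12.5% (Her1), against 5.96 and 15.8% on the other chromosomes, which turns the Her1 direction. Summits at most 100 bp apart gave 16.7% (Her1), against 12.9%. Pileups above 20 gave 7.43% (Her7) and 80.0% (Her1), against 13.6 and 62.6% on the other chromosomes, and for Her7 a density ratio of 1.196, against 2.90 for pileups of at most 20. Counting clusters once gave 1.46 (Her7). Cluster gaps of 5 and 50 kb gave 19.5 and 44.6% (Her7), and limits of 5 and 20 times the floor 58.4 and 23.8% (Her7), by their construction. The median pileup, another quantity than fold, was 20 (Her7) and 11 (Her1) fragments. For the remaining shifts the cause was not tested.

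The Her1 list limits what can be seen: 23 of its 48 long-arm peaks rest on at most 10 fragments, and its shares there carry wide intervals.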

Other observations

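Alternate contigs named for chromosome 4 carried 20 Her7 peaks, 9 of them at a start of 27 Mb or more, and 3 Her1 peaks, none of them at such a start. None of these peaks overlapped the other list. They are not members of the arm.

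Just below the boundary the Her7 list had 16 peaks in the last 1-Mb window of the short arm, where the Her1 list had 1.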
